A study of Homo sapiens with 6 samples.

Results

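The genes described here are the enzymes that make cholesterol from acetyl-CoA, the proteins that control the transcription factor SREBP2, and 3 proteins that move or esterify sterols. They were chosen by name from the known pathway, with earlier results of these data known. All 30 were found among the 40295 rows of the count table and passed the filter on low counts. By role they are 8 enzymes from acetyl-CoA to prenyl diphosphates, 3 enzymes of squalene and lanosterol formation, 10 enzymes or scaffolds after lanosterol, 6 control proteins and 3 transfer or esterification proteins. The cells were HDQ-P1, an established human breast carcinoma line. The untreated group of 3 libraries received no compound according to the labels, and no solvent is mentioned for it. The other 3 libraries came from cells kept with 1 μM Y-320, a small molecule that the study tested as an enhancer of readthrough of premature stop codons, for 48 h. All cells were grown in medium with fetal bovine serum. Nothing states that the libraries of a group came from separate cultures, so p-values measure only the spread between these libraries.

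Cells make cholesterol by joining acetyl-CoA units into mevalonate, turning mevalonate into isoprene units, and joining these into squalene, which is closed into lanosterol and trimmed to cholesterol. SREBP2, the protein of SREBF2, is held in the endoplasmic reticulum by SCAP and the INSIG proteins when sterols are plentiful. When sterols are scarce, SCAP carries it to the Golgi, where the proteases of MBTPS1 and MBTPS2 release a fragment that enters the nucleus and activates genes of the pathway. In carcinoma cells grown with serum, sterols can be both made and taken up from lipoproteins.

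With Y-320, the RNA of most of the pathway was lower. Levels are given as CPM, counts scaled to the same total in every library. Of the 30 genes, 25 were lower, 3 were higher and 2 did not pass the test (edgeR quasi-likelihood test, Benjamini-Hochberg adjusted p under 0.05). Among the 16580 genes tested, 51.5% passed in either direction, 25.4% as lower and 26.2% as higher. All 3 treated libraries lay below all 3 untreated libraries for 25 of the 30 genes, and above them for 3, against 29.4% and 29.8% of all genes tested. The median log2 fold change of the 30 genes was -0.56, and that of all genes tested was 0.0010. With a fold of at least 1.5 as a further condition, 12 genes were lower and 1 was higher, where 6.11% and 6.46% of all genes tested met it. The 3 higher genes were PMVK, INSIG2 and OSBP, and the 2 that did not pass were GGPS1 and SCAP.

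**Figure D1:**
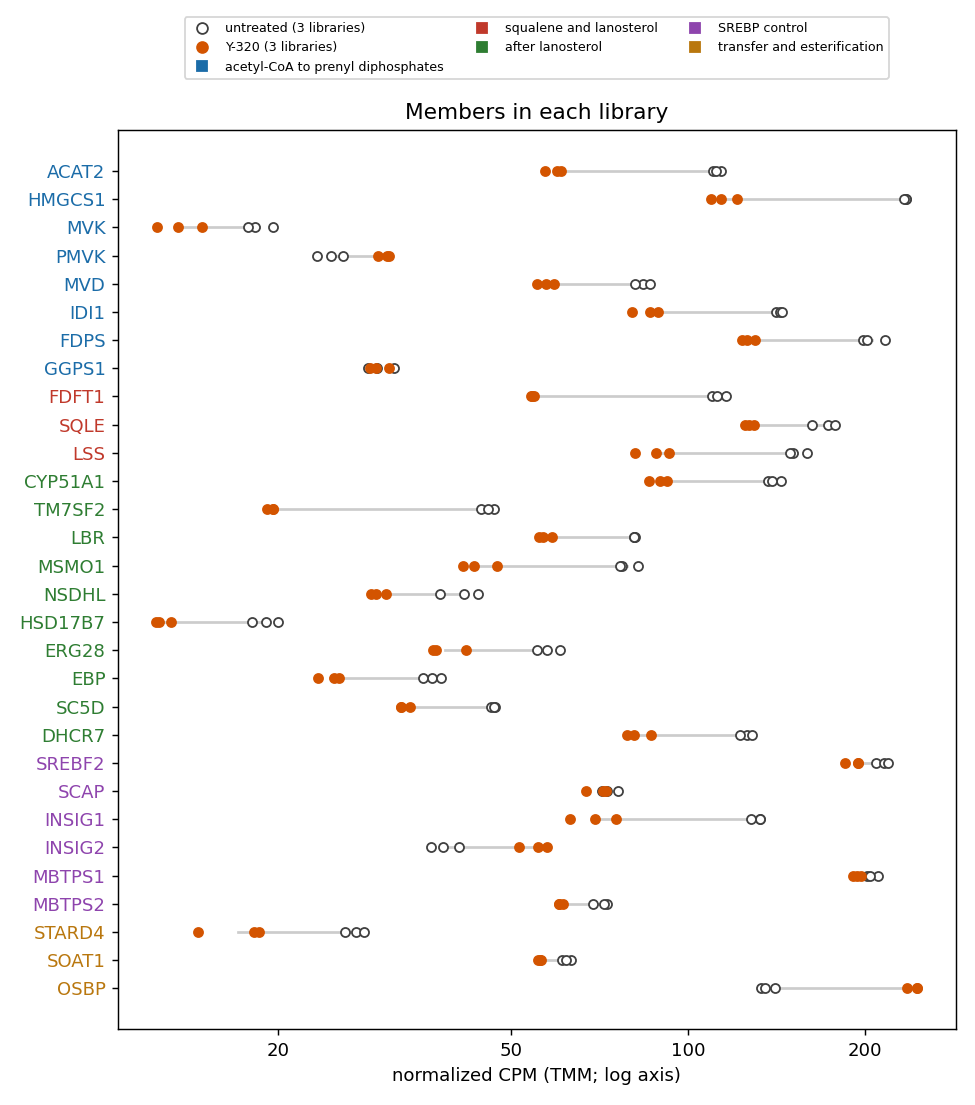
Normalized CPM (log axis) of the 30 genes in each of the 6 libraries, with 1 circle for each library (open untreated, filled Y-320) and a grey line joining the group means. Filled circles lie to the left of open ones in 25 genes and to the right in PMVK, INSIG2 and OSBP, and the groups overlap in GGPS1 and SCAP.

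Depth was similar across libraries, at 21045401 to 22740535 counts each. By these totals, before TMM scaling, 1 count was worth 0.0440 to 0.0475 CPM. So the 30 genes, at 12.4 CPM or more in every library, were all well counted. Treated and untreated libraries stood apart on the main axis of variation, which carried 58.3% of the variance. A list of 9 epithelial marker genes summed to 11706 to 12274 CPM in untreated and 7155.5 to 7252.2 CPM in treated libraries, with 8 of the 9 below and EPCAM above. The 5 fibroblast marker genes summed to 239.3 to 271.7 and 124.1 to 144.1 CPM, with 3 of 5 below. The 4 leukocyte markers summed to between 1.22 and 1.77 CPM in every library, and the 3 endothelial markers to 17.5 to 18.9 and 13.8 to 18.0 CPM, with PECAM1 higher (log2 fold change 1.22) and CDH5 lower (-1.29). The part of these shifts in the results was not tested. In bulk RNA, fewer cells of one state and less RNA in each cell cannot be told apart.

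Because the control of this pathway acts through promoters, the bases before the start of each gene were searched for a published sterol regulatory element (TCACNCCAC), the CCAAT box (CCAAT) and the GC box (GGGCGG), each on both strands. The RefSeq promoter table (GRCh38.p14) held windows for 27 of the 30 genes, and the 250 bases before the annotated start were read. The sterol element was found in 1 of the 27 genes, SREBF2 itself, with its first base 133 bases before the start, and in 1.09% of 27305 genes in the table. A CCAAT box was found in 20 of 27 (74.1%), against 37.0% of all genes, in 18 of the 22 lower genes with a window, 1 of the 3 higher genes and 1 of the 2 that did not pass. A GC box was found in 23 of 27 (85.2%), against 46.2% of all genes, and in 18 of 22 lower, 3 of 3 higher and 2 of 2 other genes. The shares of all genes are over the 27305 genes of the promoter table, which include genes not tested here. The 27 genes all passed the filter on low counts, so the sets compared are unlike. Overlapping matches were limited to 2 pairs of CCAAT boxes, in IDI1 and NSDHL, and 1 pair of GC boxes, in INSIG1. A match is a string of letters and does not show that a factor binds there. Only these exact letters were searched in the 250 bases, so a missing match does not show that an element is missing. The 6 stretches below are those of the transcription factor gene with the sterol element, of MSMO1 as a lower enzyme gene with 4 CCAAT boxes, of both INSIG genes, and of the other 2 higher genes. Each reads 5′ to 3′ on the strand of the gene and stops before the first annotated exon, with the sterol element and CCAAT boxes, or ATTGG where the box is on the other strand, in capitals.
SREBF2 (chr22:41832855-41833104, plus strand): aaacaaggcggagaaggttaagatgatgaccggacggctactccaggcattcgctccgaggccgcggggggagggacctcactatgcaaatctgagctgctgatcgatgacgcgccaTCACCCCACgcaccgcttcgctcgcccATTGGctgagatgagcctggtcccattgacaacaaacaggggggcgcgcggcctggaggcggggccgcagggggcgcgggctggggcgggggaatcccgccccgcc
MSMO1 (chr4:165327419-165327666, plus strand): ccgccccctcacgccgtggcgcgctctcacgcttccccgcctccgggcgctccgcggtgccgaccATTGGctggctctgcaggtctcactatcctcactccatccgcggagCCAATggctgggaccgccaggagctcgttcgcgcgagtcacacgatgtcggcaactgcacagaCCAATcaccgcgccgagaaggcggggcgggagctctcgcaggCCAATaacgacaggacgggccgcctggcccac
INSIG1 (chr7:155297628-155297775, plus strand): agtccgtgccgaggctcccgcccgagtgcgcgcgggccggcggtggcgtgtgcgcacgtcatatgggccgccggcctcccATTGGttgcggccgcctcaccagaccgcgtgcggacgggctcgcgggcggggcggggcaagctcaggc
INSIG2 (chr2:118088221-118088451, plus strand): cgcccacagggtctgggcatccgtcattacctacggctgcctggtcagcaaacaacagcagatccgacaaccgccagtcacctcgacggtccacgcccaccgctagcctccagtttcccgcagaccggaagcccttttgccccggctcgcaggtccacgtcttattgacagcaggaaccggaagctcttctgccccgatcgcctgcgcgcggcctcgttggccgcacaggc
PMVK (chr1:154936720-154936969, minus strand): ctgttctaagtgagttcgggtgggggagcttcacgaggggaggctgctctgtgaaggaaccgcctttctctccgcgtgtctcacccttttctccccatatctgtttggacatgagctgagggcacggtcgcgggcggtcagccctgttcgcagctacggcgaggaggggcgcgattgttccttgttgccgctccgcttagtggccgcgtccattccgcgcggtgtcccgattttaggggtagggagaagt
OSBP (chr11:59615775-59616024, minus strand): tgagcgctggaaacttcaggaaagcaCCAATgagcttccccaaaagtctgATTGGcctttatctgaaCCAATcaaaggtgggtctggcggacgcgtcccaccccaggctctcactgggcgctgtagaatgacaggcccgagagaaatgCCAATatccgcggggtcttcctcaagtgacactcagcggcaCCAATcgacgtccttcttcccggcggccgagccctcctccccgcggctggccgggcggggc

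These stretches differ most in their CCAAT boxes. OSBP, which was higher, had 5, MSMO1 had 4, INSIG1 and SREBF2 had 1 each, and PMVK and INSIG2, both higher, had none. Within these stretches, the count of this motif did not sort the higher genes from the lower ones. A relation between the motif and the direction of change was not tested.

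**Figure D2:**
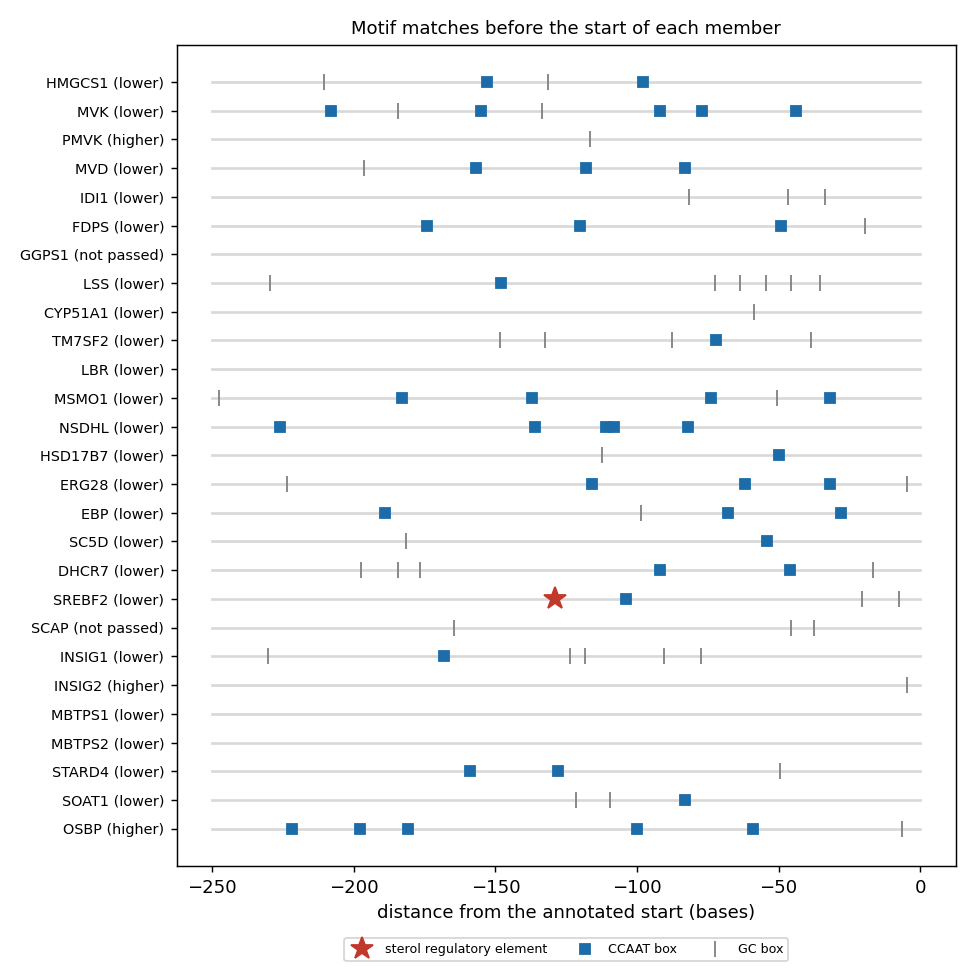
Matches to the sterol regulatory element (star), CCAAT box (squares) and GC box (ticks) in the first listed window of 27 genes, by distance in bases from the annotated start at 0. The star appears in SREBF2 alone. Further windows of the same gene are not drawn. The CCAAT boxes of IDI1, and the CCAAT and GC boxes of GGPS1, lie in such windows. They are counted in the text and absent here.

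The enzymes were lower together. The 20 enzymes and the scaffold protein ERG28 summed to 1955.4, 1969.2 and 1953.4 CPM in untreated replicates 1, 2 and 3, and to 1176.6, 1224.5 and 1243.5 CPM in the treated ones. Every treated sum was below every untreated one, and the treated mean was 62.0% of the untreated mean. Of these 21 genes, 19 were lower, 1 was higher and 1 did not pass, with a median log2 fold change of -0.58. By summed CPM, in which genes with high counts weigh most, the 3 stages were reduced to like extents. The treated sum was 60.7% of the untreated sum up to the prenyl diphosphates, 61.5% for squalene and lanosterol, and 64.0% after lanosterol. The median log2 fold changes of the stages, in the same order, were -0.62, -0.81 and -0.58.

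In the first stage, 6 of 8 genes were lower, 1 was higher and 1 did not pass. HMGCS1 (ENSG00000112972) encodes the synthase that makes HMG-CoA, the precursor of mevalonate. It measured 234.9, 235.1 and 233.0 CPM in the untreated libraries and 109.2, 113.9 and 121.2 CPM in the treated ones. The treated libraries were all far below the untreated ones. The log2 fold change was -1.03 (SE 0.035, edgeR adjusted p = 6.75e-09). ACAT2, the cytosolic thiolase that joins acetyl-CoA units before HMGCS1 acts, fell from 110.3, 113.9 and 111.5 CPM to 57.1, 60.7 and 59.7 CPM. Its groups were as clearly apart, with a log2 fold change of -0.92 (SE 0.033, edgeR adjusted p = 8.55e-09).

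The mevalonate kinases moved in opposite directions. MVK, which adds the first phosphate to mevalonate, had 18.3, 19.6 and 17.8 CPM in untreated and 13.5, 14.9 and 12.5 CPM in treated libraries, a log2 fold change of -0.45 (SE 0.074, edgeR adjusted p = 5.37e-04). PMVK (ENSG00000163344), which adds the second phosphate, had 23.4, 25.8 and 24.7 CPM in untreated and 29.6, 30.7 and 30.9 CPM in treated libraries. All treated values of PMVK lay above all untreated ones, and it was the only one of the 21 enzyme and scaffold genes to be higher, with a log2 fold change of 0.30 (SE 0.048, edgeR adjusted p = 3.97e-04). MVD, the decarboxylase that follows and yields isopentenyl diphosphate, was lower again, at 83.7 ± 2.49 CPM (SD, n = 3) untreated and 57.2 ± 1.93 CPM treated. The change between these neighbouring steps was thus -0.45, 0.30 and -0.55 on the log2 scale, in pathway order.

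IDI1, the isomerase that supplies the second isoprene unit, went from 141.2, 143.1 and 144.2 CPM to 80.3, 89.0 and 86.1 CPM, a log2 fold change of -0.75. FDPS, which joins isoprene units into farnesyl diphosphate, went from 198.4, 215.9 and 201.5 CPM to 123.5, 125.8 and 129.9 CPM, a log2 fold change of -0.70. Both genes had separated groups. GGPS1, which makes geranylgeranyl diphosphate for protein prenylation and so leads away from sterols, had 29.5, 28.5 and 31.5 CPM in untreated and 28.7, 30.98 and 29.4 CPM in treated libraries. Its groups overlapped, and the log2 fold change was -0.01 with a 95% interval from -0.12 to 0.11 (edgeR adjusted p = 0.911). That interval leaves out changes of the size seen in its neighbour FDPS. Of the 31-base words of GGPS1, 40.4% also occur in other genes, most of all in ENSG00000285053. That is an overlapping row with 78.9 to 125.8 counts per library, so kallisto may have split reads between it and GGPS1. The log2 ratio of the 2 rows summed was -0.04.

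**Figure D3:**
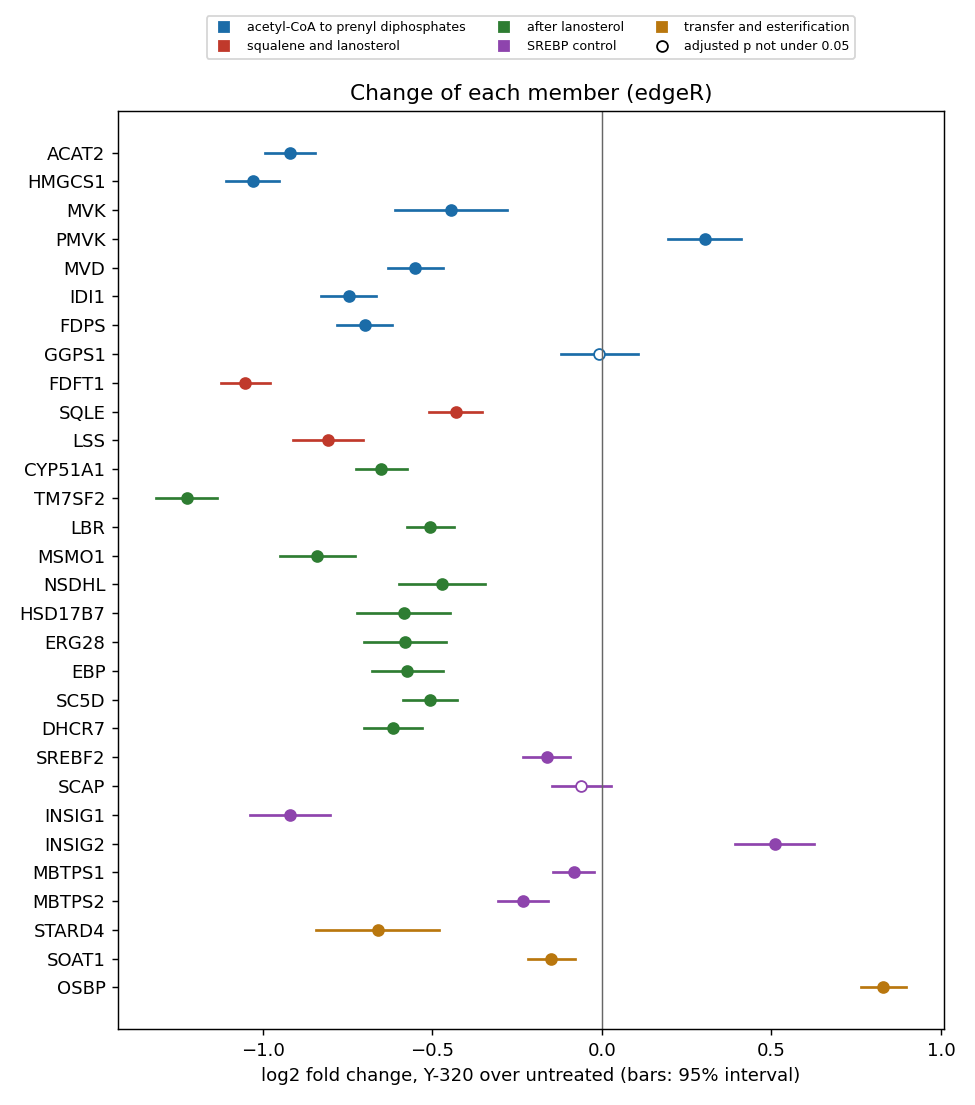
Log2 fold change (Y-320 over untreated, edgeR) of the 30 genes in pathway order, with 95% intervals as bars and open circles for genes that did not pass the test. The 10 genes after lanosterol all lie left of 0, PMVK, INSIG2 and OSBP lie right of it, and the intervals of GGPS1 and SCAP include it.

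All 3 genes of squalene and lanosterol formation were lower. FDFT1, squalene synthase, commits farnesyl diphosphate to sterols, and it fell from 116.0, 109.6 and 112.0 CPM to 53.9, 54.7 and 54.3 CPM. The treated libraries lay within 1 CPM of each other, and the log2 fold change of -1.05 (SE 0.032, edgeR adjusted p = 3.42e-09) was the second largest drop of the 30 genes. SQLE, the epoxidase that oxidises squalene, had 172.9, 178.0 and 162.7 CPM in untreated and 126.8, 124.9 and 129.2 CPM in treated libraries. It was also lower in every treated library, but by less, with a log2 fold change of -0.43 (SE 0.035, edgeR adjusted p = 3.30e-06). LSS, the cyclase that closes the ring to lanosterol, went from 150.6, 148.7 and 159.3 CPM to 81.3, 88.1 and 92.7 CPM. Its log2 fold change was -0.81 (SE 0.046, edgeR adjusted p = 2.23e-07).

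All 10 genes after lanosterol were lower, with log2 fold changes from -1.23 to -0.47 and a median of -0.58. TM7SF2 (ENSG00000149809; chromosome 11, 65111845 to 65116384, plus strand, GENCODE 44 on hg38) had the largest drop of all 30 genes. It encodes a sterol reductase that acts just after the demethylase CYP51A1. Its level was 44.4, 46.7 and 45.5 CPM in untreated and 19.6, 19.6 and 19.2 CPM in treated libraries. The treated libraries were nearly identical and held 42.8% of the untreated mean. The log2 fold change was -1.23 (SE 0.041, edgeR adjusted p = 5.49e-09), and 1.71% of all genes tested had a value as low. LBR, the lamin B receptor of the inner nuclear membrane, carries the same reductase activity, and measured 81.1, 81.0 and 80.7 CPM in untreated and 55.8, 56.7 and 58.6 CPM in treated libraries. It was lower as well, with a log2 fold change of -0.51 (SE 0.031, edgeR adjusted p = 3.98e-07).

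CYP51A1, the demethylase that acts first on lanosterol, went from 140 ± 3.65 to 89.1 ± 3.11 CPM (SD, n = 3). MSMO1, NSDHL and HSD17B7 together take off the remaining methyl groups, and ERG28 is the scaffold that holds enzymes of this step. MSMO1, the methyl oxidase, changed most among them, from 82.1, 77.1 and 76.6 CPM to 41.4, 43.3 and 47.2 CPM, a log2 fold change of -0.84 (SE 0.049, edgeR adjusted p = 2.79e-07). NSDHL, a decarboxylating dehydrogenase, and HSD17B7, a ketoreductase, had log2 fold changes of -0.47 and -0.58, and ERG28 had -0.58. The groups did not overlap for any of these genes. HSD17B7 shares 22.6% of its 31-base words with other genes, most of all with HSD17B7P2. The log2 ratio of the HSD17B7 and HSD17B7P2 rows summed was -0.49. CYP51A1 shares 68.7% of its words with other genes, most of all with ENSG00000285772, a row with at most 7.36 counts per library.

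The last 3 genes finish the ring. EBP, the isomerase, went from 36.6 ± 1.24 to 24.6 ± 1.06 CPM (SD, n = 3), and SC5D, the desaturase, from 46.6 ± 0.377 to 32.8 ± 0.680 CPM. DHCR7, the reductase of the closing step, went from 126.1, 122.4 and 128.5 CPM to 78.7, 80.7 and 86.5 CPM. Their log2 fold changes were -0.57, -0.51 and -0.62, with no overlap between groups and edgeR adjusted p-values of 3.48e-06, 1.11e-06 and 4.08e-07. For EBP, 33.2% of its 31-base words also occur in other genes, most of all in ENSG00000286268, which is no row of the table.

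**Figure D4:**
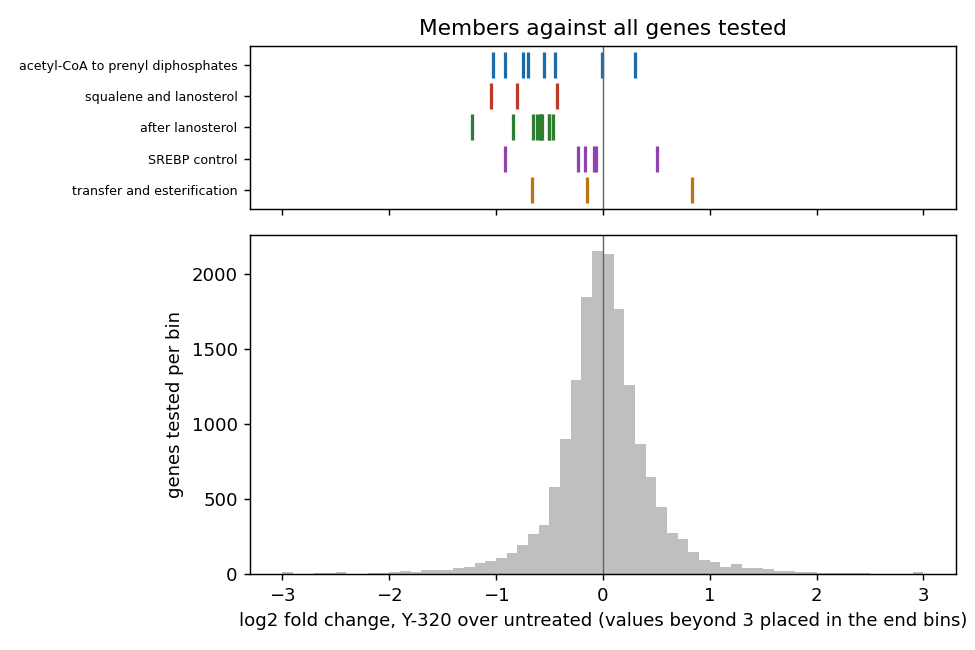
Log2 fold changes of the 30 genes by role (upper panel, 1 tick for each gene) above the histogram of all 16580 genes tested (lower panel, genes per bin, values beyond 3 placed in the end bins). Most ticks of the 3 enzyme groups lie left of the centre of the histogram, whose median is 0.0010, and those of the control genes lie on both sides.

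The control genes changed less uniformly. Of 6, 4 were lower, 1 was higher and 1 did not pass, with a median log2 fold change of -0.12. SREBF2 (ENSG00000198911), the gene of the transcription factor, had 208.4, 215.7 and 218.8 CPM in untreated and 184.6, 194.9 and 194.8 CPM in treated libraries. The treated libraries were all below the untreated ones, by a small amount, with a log2 fold change of -0.16 (SE 0.031, edgeR adjusted p = 0.00129). SCAP, its escort to the Golgi, had 71.3, 75.9 and 72.8 CPM in untreated and 72.3, 67.0 and 71.5 CPM in treated libraries. Those groups overlapped, and the log2 fold change was -0.06 with a 95% interval from -0.15 to 0.03 (edgeR adjusted p = 0.221).

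The INSIG genes, whose proteins hold SCAP in the endoplasmic reticulum, moved in opposite directions. INSIG1 (ENSG00000186480), itself a known target of SREBP2, had 132.3, 132.5 and 127.7 CPM in untreated and 62.8, 69.5 and 75.2 CPM in treated libraries. All its treated values were far below the untreated ones, with a log2 fold change of -0.92 (SE 0.053, edgeR adjusted p = 2.37e-07). INSIG2 (ENSG00000125629), which is known to depend less on SREBP2, had 38.2, 36.5 and 40.6 CPM in untreated and 51.4, 57.4 and 55.6 CPM in treated libraries. It was higher in all treated libraries, with a log2 fold change of 0.51 (SE 0.052, edgeR adjusted p = 1.75e-05). The stretches printed above hold 1 CCAAT box for INSIG1 and none for INSIG2.

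The proteases that cut SREBP2 in the Golgi changed little. MBTPS2, the metalloprotease of the second cut, went from 72.8, 68.9 and 71.9 CPM to 60.3, 60.2 and 61.3 CPM, a log2 fold change of -0.23 (SE 0.033, edgeR adjusted p = 1.84e-04). MBTPS1, the serine protease of the first cut, had 201.4, 210.3 and 204.0 CPM in untreated and 197.2, 193.4 and 190.6 CPM in treated libraries. Its groups did not overlap, but the log2 fold change was only -0.08 (SE 0.027, edgeR adjusted p = 0.0255). That call was lost without untreated replicate 2 (log2 fold change -0.07, edgeR adjusted p = 0.0958). The same held without Y-320 replicate 2 (-0.08, edgeR adjusted p = 0.0786) or without Y-320 replicate 3 (-0.07, edgeR adjusted p = 0.101).

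The 3 genes of sterol transfer and esterification did not move together. OSBP (ENSG00000110048; chromosome 11, 59574398 to 59615774, minus strand), which encodes a protein that carries cholesterol from the endoplasmic reticulum to the Golgi, rose the most of the 30. It had 133.0, 140.6 and 135.3 CPM in untreated and 236.1, 245.3 and 245.5 CPM in treated libraries. Every treated library was well above every untreated one, with a log2 fold change of 0.83 (SE 0.030, edgeR adjusted p = 9.36e-09), and 3.88% of all genes tested had a value as high. STARD4, a soluble sterol carrier, had 26.0, 27.2 and 28.0 CPM in untreated and 14.6, 18.2 and 18.6 CPM in treated libraries. It was lower in all of them, with replicate 1 the lowest, and the log2 fold change was -0.66 (SE 0.081, edgeR adjusted p = 6.42e-05). SOAT1, which esterifies cholesterol for storage, went from 62.0 ± 1.04 to 55.9 ± 0.284 CPM (SD, n = 3), a log2 fold change of -0.15 (SE 0.031, edgeR adjusted p = 0.00242).

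Levels of different genes can be compared only per transcript length, here as CPM per kilobase of the canonical transcript. On this scale FDPS was the most abundant of the 30 genes in both groups, with a level of 144.8 ± 6.57 (SD, n = 3) untreated and 89.2 ± 2.32 treated. STARD4 was the least abundant in both, at 5.85 ± 0.22 and 3.70 ± 0.47. Both positions depend on the length used. With the merged exon length of each gene, OSBP was above FDPS in treated cells (47.3 and 34.0 CPM per kilobase), and MVK was the least abundant in both groups (2.06 and 1.51, against 4.77 and 3.02 for STARD4). By the canonical length, OSBP went from position 16 to position 2 in the order of levels, at 28.9 ± 0.83 and 51.4 ± 1.14 CPM per kilobase. By the same length, FDFT1 went from position 4 to 12, at 55.3 ± 1.58 and 26.7 ± 0.20 CPM per kilobase. Both genes took other positions with the merged exon length. Positions are a description, since neighbours such as OSBP and TM7SF2 in untreated cells (28.92 ± 0.83 and 28.86 ± 0.70) differed by less than their spread. INSIG1 exceeded INSIG2 in both groups, at 45.0 ± 0.94 against 10.8 ± 0.58 CPM per kilobase untreated and 23.8 ± 2.14 against 15.4 ± 0.86 treated. With the merged exon length, TM7SF2 lay below LBR already in untreated libraries (13.4 and 14.2 CPM per kilobase), whereas the canonical length puts it above (28.9 and 21.6).

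To compare genes that share a step or a role without depending on the scaling of libraries, the log2 ratio of their counts was taken within each library. INSIG1 to INSIG2 gave 1.79, 1.86 and 1.65 in untreated and 0.29, 0.27 and 0.44 in treated libraries. All treated ratios were far lower, so INSIG1 had 3.40 times the counts of INSIG2 in untreated and 1.26 times in treated cells. FDFT1 to GGPS1, the choice between sterols and geranylgeranyl diphosphate after FDPS, went from 1.97, 1.94 and 1.83 to 0.91, 0.82 and 0.88. TM7SF2 to LBR, the pair with the same reductase activity, went from -0.87, -0.80 and -0.83 to -1.51, -1.53 and -1.61. Both pairs thus had no overlap between groups, with the first gene lower relative to the second in treated cells.

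SREBF2 to INSIG1 went the other way, from a mean log2 ratio of 0.71 ± 0.06 (SD, n = 3) to 1.47 ± 0.09. SQLE to LSS rose from 0.16 ± 0.12 to 0.54 ± 0.09, and MBTPS1 to MBTPS2 from 1.53 ± 0.07 to 1.68 ± 0.04. In all 6 pairs the groups were separate, so each two-sided exact permutation test gave p = 0.1, the smallest value that this test can give with 3 against 3 libraries, and 0.1 after adjustment over the 6 pairs. No other test was run on the ratios.

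**Figure D5:**
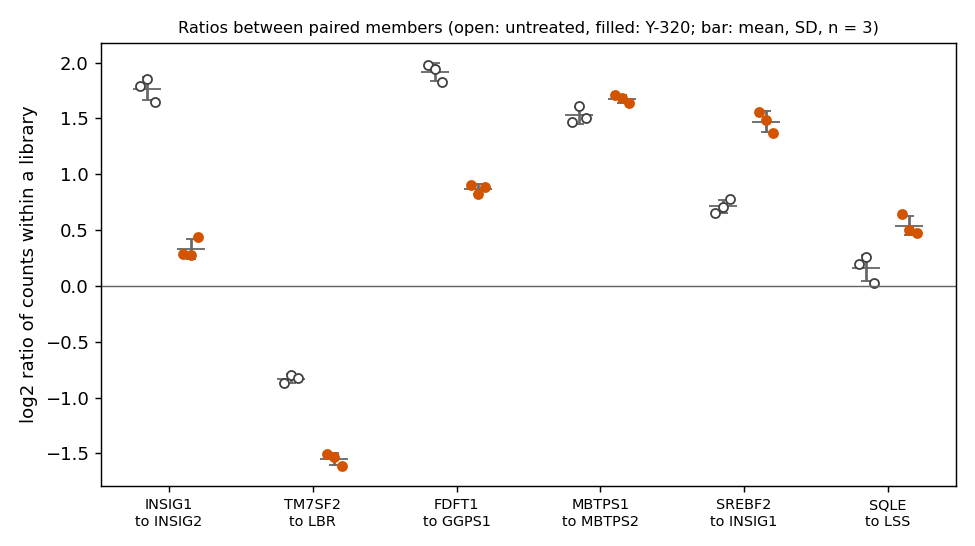
Log2 ratio of counts within each library for 6 pairs of genes, with open circles for untreated and filled circles for Y-320 libraries, and bars for the mean and SD (n = 3). The ratio of INSIG1 to INSIG2 falls from a mean of 1.77 to 0.33, that of FDFT1 to GGPS1 from 1.92 to 0.87 and that of TM7SF2 to LBR from -0.83 to -1.55, and the other 3 ratios rise.

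Other genes of sterol metabolism were taken from 5 lists by function. When pooled they did not share the direction of the enzymes, though the list of further sterol enzyme genes leaned lower. Of the 68 pooled genes, 65 were tested, and 23 were higher, 21 lower and 21 did not pass, with a median log2 fold change of 0.04. That is 35.4% higher and 32.3% lower, against 26.2% and 25.4% of all genes tested. The counts of each list below are to be read beside the same shares of all genes. Of 13 genes for the degradation of the reductase and for other control of SREBP, 5 were higher, 5 lower and 3 did not pass. The count of lower genes was 2 without untreated replicate 1, 3 without Y-320 replicate 2 or without Y-320 replicate 3, and also 3 with library size scaling and in DESeq2, and it was 1 with a threshold of 0.01. RNF145, an E3 ligase of the endoplasmic reticulum, was the highest of them, at 136 ± 6.75 CPM (SD, n = 3) untreated and 429 ± 4.90 CPM treated, a log2 fold change of 1.66 (edgeR adjusted p = 4.72e-10). SPRING1, a partner of MBTPS1, had a log2 fold change of -0.19, and its call was lost without untreated replicate 1 (edgeR adjusted p = 0.0517).

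Of 21 sterol transfer genes, 6 were higher, 9 lower and 6 did not pass. Their extremes were OSBPL2, a relative of OSBP, at 0.56, STARD5 at 0.57, GRAMD1C at -0.42 and OSBPL5 at -0.34 on the log2 scale. STARD5, with a mean of 1.64 CPM in untreated cells, lost its call without untreated replicate 1 or 3 or without any treated library (edgeR adjusted p from 0.0504 to 0.136) and in DESeq2 (adjusted p = 0.138). Of 14 genes that use prenyl diphosphates for other products, 6 were higher, 1 lower and 7 did not pass, with 2 lower without Y-320 replicate 1 and 0 lower in DESeq2. DHDDS and NUS1, which form the enzyme that makes the carrier dolichol, had log2 fold changes of 1.02 (edgeR adjusted p = 4.29e-08) and 0.49 (1.16e-06). Both were thus higher while FDPS, which supplies their substrate, was lower. COQ2, of ubiquinone synthesis, was the lower one at -0.18, and its call was lost in DESeq2 (adjusted p = 0.0883).

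Of 13 genes of sterol oxidation, ester hydrolysis and the liver X receptors, 12 were tested, and 5 were higher (3 in DESeq2), 3 lower and 4 did not pass. ABCG1, a sterol exporter and known target of the liver X receptors, went from 7.16 ± 0.45 to 28.5 ± 1.43 CPM (SD, n = 3), a log2 fold change of 2.00 (edgeR adjusted p = 6.60e-09). The receptor genes NR1H2 and NR1H3 had log2 fold changes of 0.33 and -0.30. SULT2B1, a sterol sulfotransferase, had -0.45, a call lost without replicate 1 or 3 of either group (edgeR adjusted p from 0.0557 to 0.107) and in DESeq2 (adjusted p = 0.0718). Of 7 further sterol enzyme genes and related genes, 5 were tested, and 1 was higher, 3 were lower and 1 did not pass. The median log2 fold change of these 5 was -0.39, so this list leaned in the direction of the enzymes. TMEM97, a membrane protein related to EBP, went from 74.0 ± 0.98 to 36.8 ± 0.56 CPM (SD, n = 3), a log2 fold change of -1.01 (edgeR adjusted p = 4.79e-09).

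Some of the genes share exons with genes on the opposite strand, over 37.7% of the exon bases of HMGCS1, 22.2% of ACAT2, 18.6% of FDPS and 14.97% of IDI1. Whether the counting used strand is not given in the sources used here, so reads of these partners cannot be told apart from those of the 4 genes. The other 26 genes overlap opposite-strand exons over less than 10% of their exon bases.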

How the data were processed

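RNA of HDQ-P1 cells, 3 untreated and 3 Y-320 libraries, was extracted with a column kit and sequenced on an Illumina instrument. The authors deposited estimated counts per gene, without normalization, made with kallisto 0.46.1 and GRCh38 as named in the submitters' processing notes. The Ensembl release is not given in the sources used here. Of the values, 48.5% were not whole and were rounded.

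Genes were kept by filterByExpr (at least 10 counts, and 15 over all libraries). The 16580 genes left were tested with the quasi-likelihood method of edgeR 4.0.16 (R 4.3.3) after TMM scaling, without a block, and adjusted by Benjamini-Hochberg with a threshold of 0.05. CPM were computed from TMM-scaled library sizes. DESeq2 1.42.0, limma-voom (limma 3.58.1), other filters, scalings and thresholds, a replicate block and leaving out each library were alternatives. The fit was tested on simulated data. Within-library ratios used a pseudocount of 0.5 and exact permutation tests. Plots and tables used Python 3.11.15, pandas 2.3.3, scipy 1.17.1 and matplotlib 3.10.9. Positions, lengths and shared 31-base words came from GENCODE 44 on hg38, and promoters from RefSeq.

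The genes and lists were chosen with earlier results of these data known. Every one of the 30 genes is named, and from each other list the called genes with the 2 highest and 2 lowest log2 fold changes, if their mean reached 1 CPM. A few genes that this would name are not reported here, though the list counts include them. The protein and readthrough measurements of the study were not analysed here.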

Additional observations from a re-analysis of the deposited data

How the results depend on the processing

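Of 420 log2 fold changes of the 30 genes recomputed under the alternatives, 413 kept their direction and their side of the threshold, and 28 genes kept both throughout. The exceptions were the 3 lost calls of MBTPS1 given above, and 4 values of GGPS1, which did not pass in any of them, where the log2 fold change turned from -0.01 to 0.0049 with library size scaling and to at most 0.0322 when a library was left out. The counts of 25 lower and 3 higher were within 1.5 times in every alternative except the condition of a fold of at least 1.5, which left 12 lower and 1 higher. The same condition left 3 higher and 1 lower of the other sterol genes, from 23 and 21. Samples with the same replicate number did not deviate together (correlations of -0.002, 0.015 and 0.002). Whether they were paired by culture or preparation is not stated, and these correlations cannot decide it. With a replicate block, 25 of the 30 genes were lower and 3 higher, and over all genes 4285 were higher and 4159 lower, against 4336 and 4210 without it. DESeq2 called 3405 higher and 3278 lower over all genes. The ratios of pairs were tested by exact permutation alone, which cannot go below 0.1 with 3 libraries a group.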
